A study of Canis lupus familiaris with 6 samples.

Results

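A set of DNA-binding factors that build and maintain photoreceptors was followed in the retina of dogs: CRX, OTX2, NRL, NR2E3, RORB, MEF2D, THRB, RXRG, PRDM1 and ATOH7. These 10 genes were chosen by name and found by symbol among the 34981 gene names of the count matrices, in which all 10 are present. Each was measured in rods, cones and bipolar cells picked out by marker genes, over a graft and away from it. The material was neural retina of dogs with normal retinas (genotype normal or wild-type) that had received immunosuppression and, under the retina, triturated fragments of retinal organoids grown from WA09 CRX-tdTomato, an established human embryonic stem cell line with a reporter for CRX. At day 3 each experiment (LG5, RC726 or RC724, 3 in all and independent) gave a pair of 5 mm punches for single-cell RNA sequencing, the first from retina above the graft and the second from a graft-free area, hence 3 libraries over the graft and 3 control libraries. Both groups thus come from grafted, immunosuppressed dogs, and no retina without a graft was used here. The labels give neither the age of the dogs nor how many dogs an experiment used.

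Vertebrate photoreceptors are specified by a small cascade of transcription factors, known mainly from the mouse. OTX2, a homeodomain protein, commits progenitors to the photoreceptor and bipolar lineages and switches on CRX, a related homeodomain protein that activates most photoreceptor genes in rods and cones alike. RORB, an orphan nuclear receptor, acts upstream of NRL, the leucine zipper factor that makes a photoreceptor a rod. NRL in turn activates NR2E3, a nuclear receptor that represses cone genes in rods. MEF2D binds with CRX at photoreceptor enhancers. THRB, the thyroid hormone receptor beta gene, and RXRG, a retinoid X receptor, set the choice between opsins in cones. PRDM1 is a repressor that holds back the bipolar fate in young photoreceptors. ATOH7 is a proneural factor of dividing retinal progenitors, best known because ganglion cells do not form without it. Most of these genes stay on in the mature retina, where they keep the photoreceptor programme running, whereas ATOH7 and PRDM1 are known as genes of development.

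The 6 libraries held 8778 to 23908 barcodes and 34768162 to 60755006 UMIs. Rods were gated in numbers of 5405, 7205 and 5841 barcodes over the graft and 5154, 7033 and 5297 in control (here and throughout, 3 values stand for LG5, RC726 and RC724 in that order). Cones numbered 776, 414 and 198 over the graft and 832, 352 and 311 in control, and bipolar cells 4222, 681 and 614 over the graft and 3041, 593 and 1021 in control. None of the 10 genes was used in the gate. Levels are given as CPM, UMIs of a gene scaled to a fixed total of the UMIs summed over a class in a library, and since the method counts transcript ends, they compare a gene between samples and not one gene with another. The markers behind the gate were themselves lower over the graft. The summed share of UMIs from the 10 rod markers in gated rods was 1.57%, 1.76% and 1.16% over the graft and 3.19%, 2.33% and 2.27% in control, and that of the 11 cone markers in gated cones was 1.48%, 1.91% and 1.18% over the graft and 2.49%, 2.39% and 2.06% in control. Cones within 1.5 times the gate threshold made up 20.5%, 6.76% and 20.2% of all cones over the graft, against 0.721%, 2.27% and 2.25% in control. LG5 stood apart, with an estimated share of free RNA in its cones of 51.9% over the graft and 48.8% in control, against 12.9% to 17.4% in the cones of the other 4 libraries. Its counts also came from Cell Ranger 6.0.2, and those of the other experiments from 7.0.0 or 7.1.0. The part of these differences in the results that follow was not tested beyond the settings named there.

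In control retina part of the set, such as NRL, NR2E3 and RXRG, separated the classes along known lines, as the plot of levels by class shows. Others, among them RORB and THRB, did so less or not at all. Tested between cones and rods over the 3 control libraries, 7 of the 10 genes passed an adjusted p of 0.05 (edgeR quasi-likelihood test, Benjamini-Hochberg adjustment over all genes), beside 42.6% of all 13101 genes tested. Between bipolar cells and rods, 6 of the 8 genes tested passed, beside 51.1% of 14395 genes. With so many genes differing between the classes, the count alone says little about the 10.

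**Figure D1:**
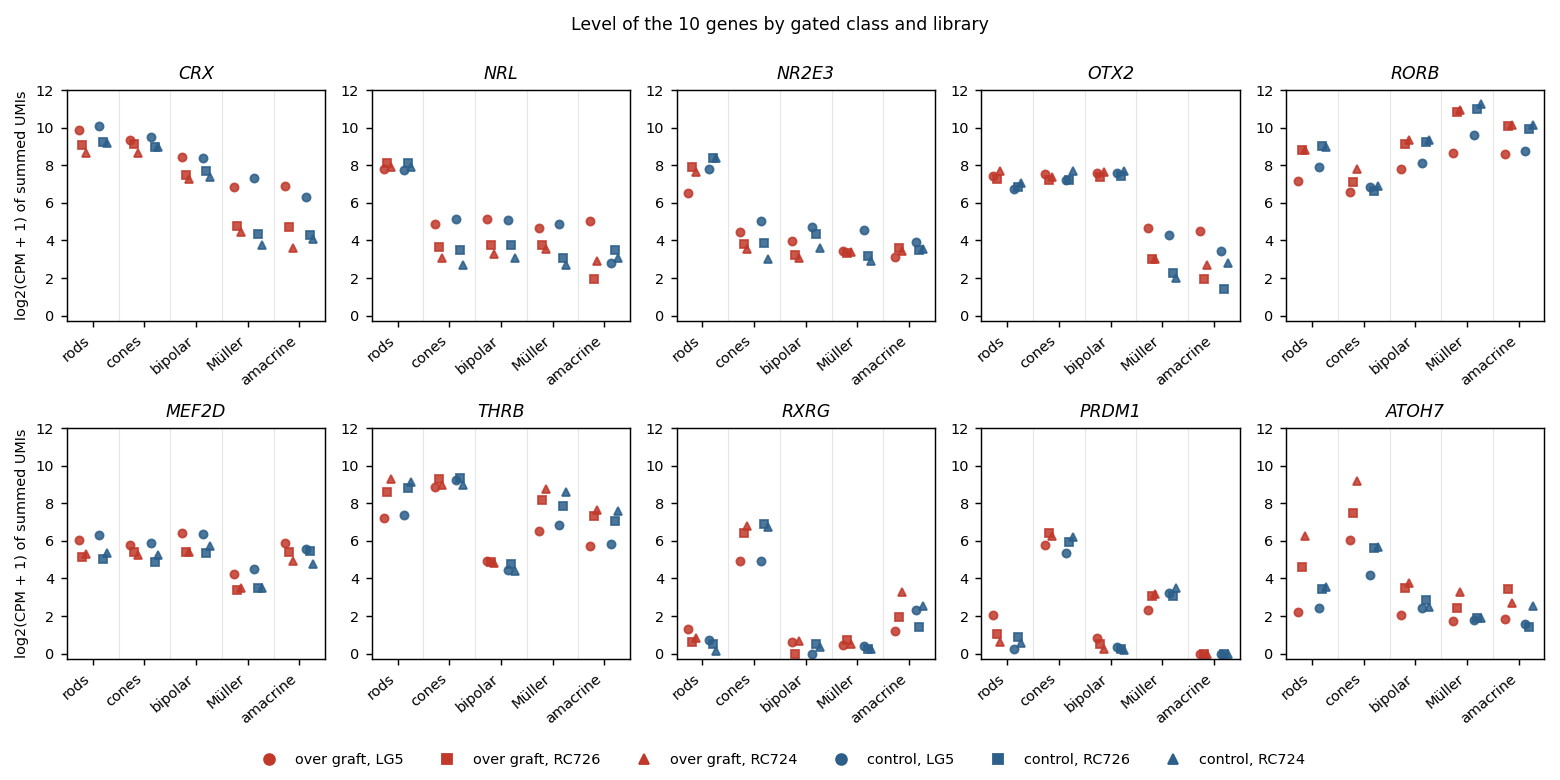
Level of each gene, as log2 of CPM + 1, in 5 gated classes, with the 3 libraries over the graft (red) to the left of the 3 control libraries (blue) and 1 symbol per experiment. CRX and OTX2 are high in rods, cones and bipolar cells, NRL and NR2E3 in rods, RXRG and PRDM1 in cones, and ATOH7 over the graft reaches 586 CPM in the cones of RC724.

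CRX was shared by both photoreceptors. It had 737, 508 and 495 CPM in control cones and 1091, 605 and 572 CPM in control rods, and the 2 ranges overlapped (log2 difference, cones minus rods, -0.21 ± 0.16 SE; adjusted p = 0.337, edgeR). Bipolar cells carried less of it, with 336, 203 and 164 CPM against the rod values just given, a difference of -1.55 ± 0.13 (adjusted p = 0.000822, edgeR). Müller glia, which do not express CRX, still showed 160.1, 19.0 and 12.6 CPM in control, values read here as the background of free RNA, highest in LG5. OTX2 had another order. It was highest in bipolar cells at 189, 171 and 206 CPM, followed by cones at 149.6, 149 and 205 CPM and rods at 105, 114 and 132 CPM. Bipolar cells exceeded rods by 0.83 ± 0.12 (adjusted p = 0.00313, edgeR) and cones exceeded rods by 0.64 ± 0.13 (adjusted p = 0.00574, edgeR). The cone difference was not called without RC726, without RC724 or after thinning, and between bipolar cells and cones the ranges overlapped.

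NRL and NR2E3 marked rods. NRL had 34.5, 10.4 and 5.56 CPM in control cones, against 213, 276 and 238 CPM in control rods, and NR2E3 had 32.2, 13.5 and 7.11 CPM in control cones, against 226, 331 and 337 CPM in control rods. The differences were -4.01 ± 0.44 for NRL (adjusted p = 0.000301) and -4.13 ± 0.43 for NR2E3 (adjusted p = 0.000232, edgeR). What remains of both genes outside rods was of the order found in Müller glia, where NRL had 28.0, 7.36 and 5.44 CPM and NR2E3 22.7, 8.12 and 6.44 CPM in control, so it cannot be read as expression. Bipolar cells gave nearly the same picture, with -3.91 ± 0.47 for NRL and -3.94 ± 0.35 for NR2E3 relative to rods (adjusted p = 0.00188 and 0.000876, edgeR).

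RORB and MEF2D were not confined to photoreceptors. RORB had 114, 98.1 and 117 CPM in control cones, against 242, 529 and 499 CPM in control rods, a difference of -1.75 ± 0.23 (adjusted p = 0.00073, edgeR), and the ranges did not overlap. Inner retinal classes held more: bipolar cells had 275, 595 and 659 CPM, amacrine cells 435, 977 and 1123 CPM and Müller glia 783, 2005 and 2498 CPM in control. The 2 control libraries with at least 20 horizontal cells gave 1292 CPM in LG5 and 3972 CPM in RC724, the highest of these classes in both. Cones thus held the least RORB of these 6 classes in each control library, and after subtraction of free RNA too few RORB UMIs were left in cones for a test of their change. MEF2D was almost even, at 57.3, 28.3 and 37.4 CPM in cones, 82.3, 39.2 and 51.1 CPM in bipolar cells and 77.1, 31.9 and 40.2 CPM in rods. Its cone-rod difference was -0.10 ± 0.15 (adjusted p = 0.622), while bipolar cells exceeded rods by 0.38 ± 0.12 (adjusted p = 0.045, edgeR), a call kept in 3 of 12 alternatives.

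The cone genes differed in how strictly they kept to cones. RXRG was found at 28.9, 117 and 108 CPM in control cones, whereas control rods held 12 RXRG UMIs in all 3 libraries together and control bipolar cells 4. Its fitted difference was 8.06 ± 0.46 (adjusted p = 1.36e-05, edgeR), on those few rod UMIs. Outside cones, RXRG was detected in ganglion cells, at 94.4 CPM from 23 UMIs in the LG5 control, the only control library with at least 20 of them. PRDM1 was likewise far higher in cones than in rods, with 40.6, 60.8 and 73.8 CPM in control cones and 19 UMIs in all control rods. The difference was 6.86 ± 0.27 (adjusted p = 2.98e-06, edgeR). Control Müller glia, however, had 8.22, 7.46 and 10.3 CPM of PRDM1, from 447 UMIs. The microglia of the LG5 control, also the only control library with at least 20, had 154 CPM of PRDM1. THRB reached 595, 659 and 501 CPM in control cones, and yet control rods also had 163, 442 and 560.1 CPM. The ranges overlapped and the difference of 0.88 ± 0.32 did not pass (adjusted p = 0.0576, edgeR), though it did in 5 of 12 alternatives. Bipolar cells had little THRB at 21.1, 26.4 and 19.9 CPM, -3.84 ± 0.37 relative to rods (adjusted p = 0.00105, edgeR). Other classes held more: control Müller glia had 115, 233 and 394 CPM of THRB and control amacrine cells 55.9, 134 and 192 CPM. THRB counts were thus not confined to photoreceptors, and the part of free RNA in them was not tested. Counts at the transcript end do not separate the isoforms of THRB, of which one is specific to cones.

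ATOH7 was higher in control cones than in control rods, bipolar cells and Müller glia. Control cones had 17.2, 48.2 and 50.4 CPM, against 4.42, 9.90 and 10.5 CPM in control rods, and the lowest cone value exceeded the highest rod value. Cones exceeded rods by 2.35 ± 0.18 (adjusted p = 5.76e-05, edgeR), a 5.11-fold difference called in all 12 alternatives. Bipolar cells had 4.39, 6.20 and 4.59 CPM and Müller glia 2.46, 2.77 and 2.74 CPM in control.

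Over the graft, rods changed in 3 of the 9 genes that could be tested: NR2E3 fell, and OTX2 and ATOH7 rose. Among all 15681 genes tested in rods, 20.9% were called, so 3 of 9 is not far from the background of a class in which a large share of genes moved. In cones 1 of 10 was called, ATOH7, beside 4.29% of 11831 genes (2.75% called higher). In bipolar cells 0 of 8 were called (edgeR; 2 had an unadjusted p under 0.05, and DESeq2 also called 0), beside 0.706% of 13735 genes. RXRG in rods, and RXRG and PRDM1 in bipolar cells, had too few UMIs to be tested.

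**Figure D2:**
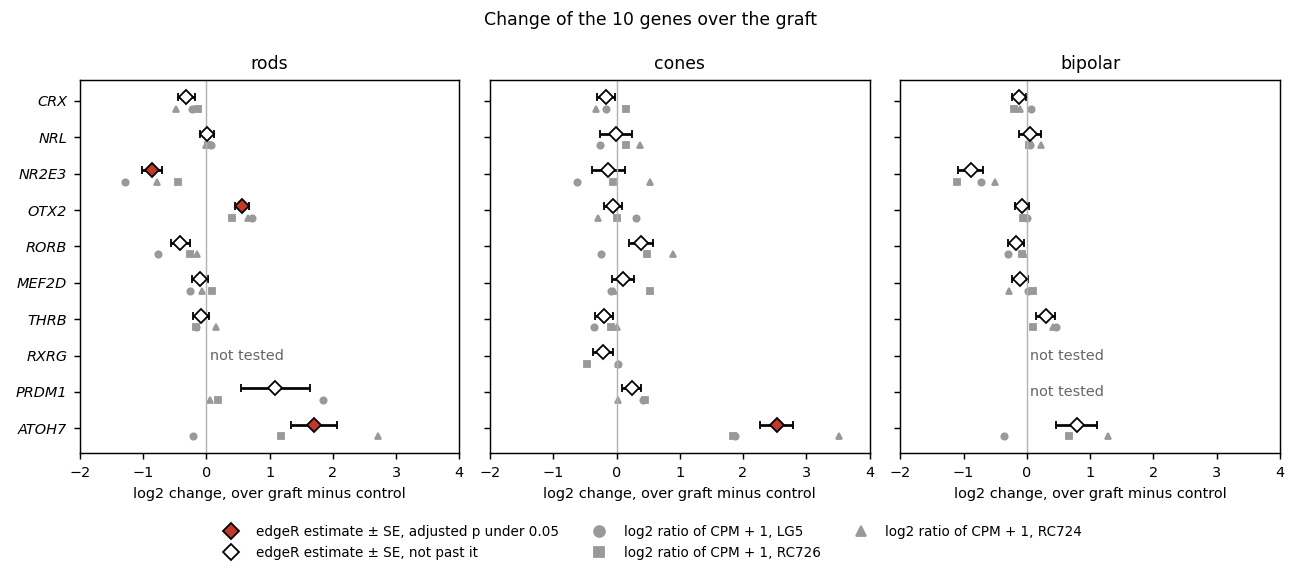
Log2 change of each gene, over graft minus control, in rods, cones and bipolar cells. Diamonds are edgeR estimates with their SE, filled red where the adjusted p is under 0.05, and grey symbols below them are the log2 ratios of CPM + 1 in the single experiments. ATOH7 has the largest estimate in cones at 2.53 and in rods at 1.71, and the 3 experiments differ most for it.

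OTX2 rose in rods. It had 174, 151 and 209 CPM over the graft, against 105, 114 and 132 CPM in control, and the groups did not overlap. The change was 0.56 ± 0.11 (adjusted p = 0.00342, edgeR), higher in 3 of 3 experiments, a 1.48-fold difference called in 12 of 13 alternatives, and the rod values over the graft lay near those of control cones. OTX2 was not called in the other 2 classes. Cones had 185, 150.4 and 166 CPM over the graft and 149.6, 149 and 205 CPM in control, a difference of -0.060 ± 0.14 (adjusted p = 0.907, edgeR), and bipolar cells 189, 163 and 199.6 CPM over the graft and 189, 171 and 206 CPM in control. Tested directly, the OTX2 change in cones was below that in rods by 0.58 on the log2 scale (estimate -0.58 ± 0.12; adjusted p = 0.00092, edgeR interaction), and that in bipolar cells by 0.64 (estimate -0.64 ± 0.11; adjusted p = 0.00424). Neither difference was called with free RNA subtracted or with the experiments' class terms left out of the fit. In barcodes thinned to 500 UMIs, the share of rods with an OTX2 UMI was 8.05%, 6.84% and 9.52% over the graft and 5.12%, 5.18% and 6.08% in control, higher over the graft in each experiment.

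CRX, the gene OTX2 is known to activate, was not called. Rods had 929.8, 550.0 and 409 CPM of CRX over the graft and 1091, 605 and 572 CPM in control, lower in 3 of 3 experiments, but the groups overlapped because LG5 was high in both. The change of -0.31 ± 0.13 did not pass (adjusted p = 0.114, edgeR). In cones CRX had 657, 562 and 396 CPM over the graft and 737, 508 and 495 CPM in control, with a change of -0.16 ± 0.15 (adjusted p = 0.682, edgeR).

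Of the 2 rod determinants, NR2E3 was called and NRL was not. NRL had 226, 282 and 238 CPM over the graft and 213, 276 and 238 CPM in control. Its change of 0.0069 ± 0.11 (adjusted p = 0.972, edgeR) was the smallest among the 9 genes tested in rods. NR2E3, its target, had 92.0, 243 and 196 CPM over the graft, against 226, 331 and 337 CPM in control. Every experiment was lower over the graft, although RC726 over the graft exceeded the LG5 control. The change was -0.86 ± 0.16 (adjusted p = 0.0024, edgeR), or 0.552 of the control level, called in 12 of 13 alternatives. At 500 UMIs per barcode, 4.75%, 10.3% and 7.65% of rods over the graft and 9.55%, 13.5% and 14.0% of control rods had an NR2E3 UMI. In bipolar cells NR2E3 had 14.8, 8.32 and 7.39 CPM over the graft and 25.2, 19.0 and 11.0 CPM in control, levels far nearer to those of Müller glia than of rods. The rod markers likewise held 0.223%, 0.0962% and 0.0557% of bipolar UMIs over the graft and 0.426%, 0.113% and 0.0915% in control. The gate caps this share, at a lower value over the graft in each experiment. The part of the rod markers and of this cap in the result was not tested. The NR2E3 difference was -0.89 ± 0.20 and did not pass (adjusted p = 0.0617, edgeR), though it did in 3 of 11 alternatives, among them the fit without RC724 (estimate -1.03).

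**Figure D3:**
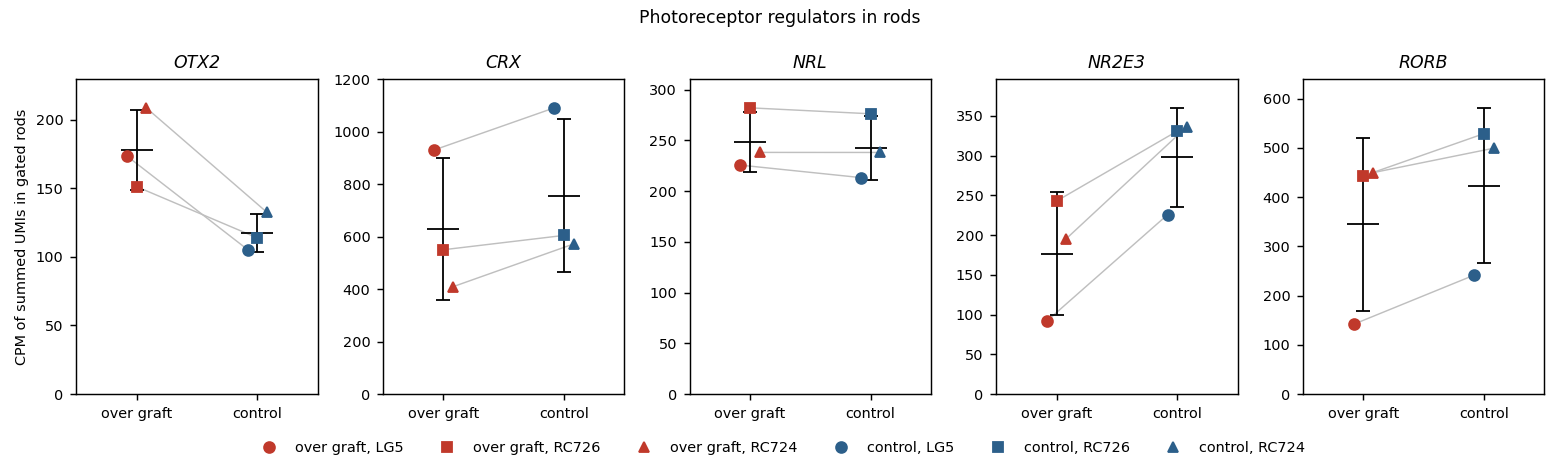
CPM in gated rods over the graft (left in each panel) and in control (right) for OTX2, CRX, NRL, NR2E3 and RORB, with lines joining the punches of an experiment and black bars for the mean ± SD of 3 libraries. The 3 OTX2 values over the graft lie above all 3 control values, NR2E3 is lower over the graft in each experiment, and the NRL groups overlap.

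RORB had estimates of opposite sign in rods and cones, and neither change passed on its own with all 3 experiments. Rods had 142, 443 and 449.7 CPM over the graft and 242, 529 and 499 CPM in control, a change of -0.41 ± 0.15 (adjusted p = 0.071, edgeR), lower in 3 of 3 experiments. Cones had 96.3, 137 and 219 CPM over the graft and 114, 98.1 and 117 CPM in control, a change of 0.39 ± 0.18 (adjusted p = 0.329, edgeR), higher in RC726 and RC724 and lower in LG5. Single experiments weighed heavily here. The cone change was 0.66 and called without LG5 (adjusted p = 0.000293, edgeR), 0.33 without RC726 and 0.087 without RC724. The rod change was -0.20 without LG5, -0.50 and called without RC726 (adjusted p = 0.0356, edgeR) and -0.56 without RC724. The difference between the changes, cones minus rods, was 0.83 ± 0.13 (adjusted p = 5.11e-06, edgeR interaction). It was called in 7 of 8 alternatives, but 1 of these 7 is the subtraction of free RNA, whose call is no support. Subtraction of free RNA, however, left RORB UMIs in the cones of 1 of 6 libraries, RC724 over the graft. It removes a share of the whole punch set from rod markers, and whole control punches had 512, 969 and 1556 CPM of RORB. Outside RC724 over the graft, the amount to be removed reached or exceeded all RORB of the cones. This setting thus cannot tell RORB of cones from background, and that was not tested otherwise. NR2E3 was not called in cones, with 20.5, 12.9 and 10.7 CPM over the graft and 32.2, 13.5 and 7.11 CPM in control, and its cone change exceeded the rod change by 0.76 ± 0.22 (adjusted p = 0.0241, edgeR interaction). That call rests on cone levels far nearer to those of Müller glia than of rods. It was lost in 4 of 8 alternatives, among them the fits without LG5 (difference 0.74) and without RC724 (difference 0.43). The alternatives that kept it include free RNA subtraction, which left no NR2E3 UMIs in control cones, so that call is no support either. Among all genes 7.14% were called in this comparison, in which 4 of the 10 passed, and 7.23% in that of bipolar cells with rods, in which 1 of 8 passed.

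MEF2D and THRB were not called in rods. MEF2D had 64.6, 34.2 and 38.3 CPM over the graft and 77.1, 31.9 and 40.2 CPM in control (change -0.10 ± 0.12; adjusted p = 0.608, edgeR), and THRB had 145, 394 and 625 CPM over the graft and 163, 442 and 560.1 CPM in control (change -0.085 ± 0.13; adjusted p = 0.695). In cones THRB had 465, 619.9 and 501 CPM over the graft and 595, 659 and 501 CPM in control, a change of -0.20 ± 0.15 (adjusted p = 0.601, edgeR). RXRG had 29.4, 83.8 and 109 CPM in cones over the graft and 28.9, 117 and 108 CPM in control cones, with overlapping groups and a change of -0.22 ± 0.15 (adjusted p = 0.569, edgeR). The repressor PRDM1 had 54.4, 83.0 and 74.8 CPM in cones over the graft and 40.6, 60.8 and 73.8 CPM in control cones, slightly higher in each experiment, with a change of 0.24 ± 0.15 that did not pass (adjusted p = 0.5, edgeR). PRDM1 in rods rested on few UMIs, at 3.20, 1.08 and 0.533 CPM over the graft and 0.17, 0.83 and 0.472 CPM in control (change 1.09 ± 0.55; adjusted p = 0.183, edgeR). MEF2D and NRL in cones had changes of 0.11 ± 0.17 and -0.010 ± 0.25 and were not called.

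ATOH7 rose most. In cones it had 66.0, 176 and 586 CPM over the graft, against 17.2, 48.2 and 50.4 CPM in control. The lowest library over the graft exceeded the highest control, and RC724 over the graft stood far above the rest. The change was 2.53 ± 0.27 (adjusted p = 3.41e-05, edgeR), a 5.77-fold rise seen in 3 of 3 experiments, with estimates of 1.83 without RC724, 2.69 without LG5 and 2.97 without RC726, all called. In rods it had 3.68, 23.6 and 74.3 CPM over the graft, against 4.42, 9.90 and 10.5 CPM in control. Here LG5 was not higher over the graft and RC724 differed most. The rod change was 1.71 ± 0.36 (adjusted p = 0.00504, edgeR), higher in 2 of 3 experiments, and it was not called without RC724 (change 0.80, adjusted p = 0.117) or by DESeq2 (change 1.26, adjusted p = 0.346). Set against each other in 1 fit, cones exceeded rods by a further 0.85 ± 0.18 (adjusted p = 0.000749, edgeR interaction), which was not called with free RNA subtracted.

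**Figure D4:**
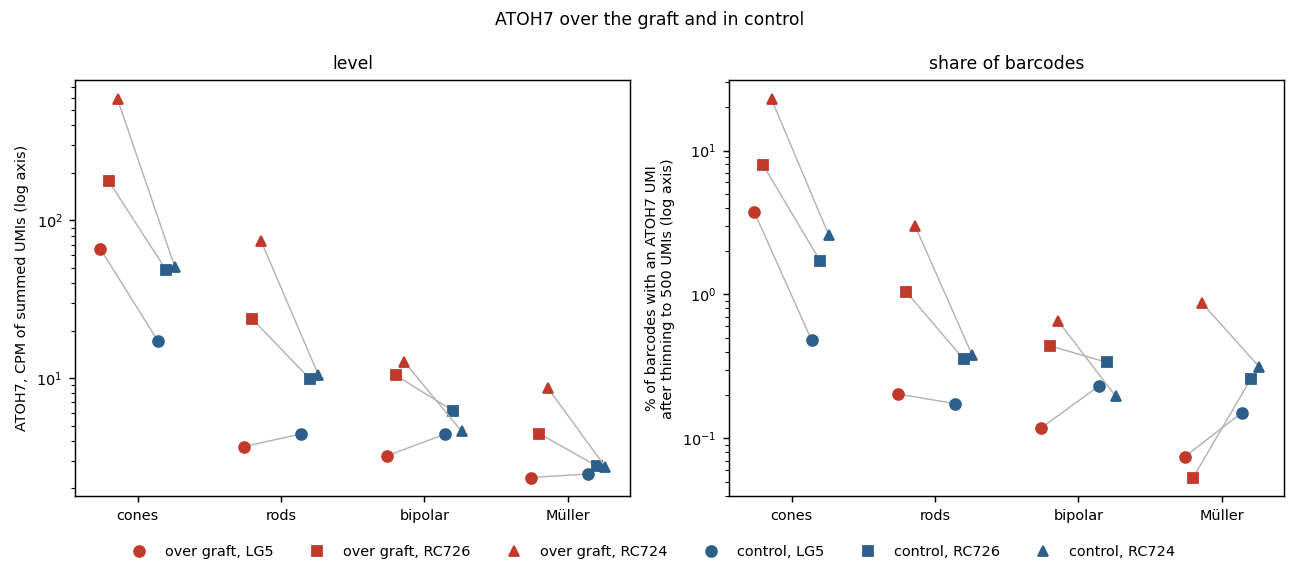
ATOH7 in cones, rods, bipolar cells and Müller glia, over the graft to the left of control and on log axes, with lines joining the punches of an experiment. The left panel gives CPM and the right panel the share of barcodes with an ATOH7 UMI after thinning to 500 UMIs. In cones all 3 experiments are higher over the graft on both scales, while LG5 is not higher in rods on the CPM scale.

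The share of cones with ATOH7 UMIs was higher over the graft in each experiment. In RC726 and RC724 there were also more UMIs per cell, read without thinning at unequal depths. After thinning every barcode to 500 UMIs, 3.74%, 7.97% and 22.7% of cones over the graft and 0.481%, 1.70% and 2.57% of control cones had an ATOH7 UMI. The exact 95% intervals of the RC724 shares, which cover counting error only, ran from 17.1% to 29.2% over the graft and from 1.12% to 5.01% in control. Rods gave 0.204%, 1.04% and 3.01% over the graft and 0.175%, 0.355% and 0.378% in control. Müller glia, taken as a class without the gene, gave 0.0746%, 0.0535% and 0.875% over the graft and 0.151%, 0.257% and 0.314% in control, so the rod shares of RC726 and RC724 over the graft lie above this background and those of LG5 close to it. Unthinned, the shares in cones were 8.63%, 41.3% and 74.7% over the graft and 3.61%, 30.1% and 31.8% in control, at median depths of 1301, 7909 and 14222 UMIs per cone over the graft and 1977, 9001 and 11083 in control. Some cones held many copies: in RC726 and RC724, 56 and 104 cones over the graft had 3 or more ATOH7 UMIs, with up to 52 and 57, against 17 and 15 control cones with up to 6 and 9. In LG5 no cone exceeded 2 UMIs in either punch.

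Other genes of retinal progenitors were read in the same barcodes. No source used here states whether human reads were separated before counting, and their part in these counts was not tested. SFRP2 was left out of this reading because rods and cones of both groups carried it at 295 to 455 mean CPM. That leaves 11 genes, among them NEUROG2, SOX11, MKI67, TOP2A and HES6. HES6 was itself called higher over the graft in rods and in cones, as given below, and its part in the sum was not separated. The sum is thus no measure of dividing progenitors. In cones over the graft, their summed level was 245, 43.6 and 60.0 CPM in barcodes with an ATOH7 UMI and 107, 37.3 and 51.2 CPM in barcodes without, where the LG5 values rest on 26 and 109 UMIs. In control cones it was 87.0, 46.0 and 46.9 CPM with an ATOH7 UMI and 54.9, 40.9 and 49.6 CPM without. The cone markers took 1.26%, 1.89% and 1.14% of UMIs in cones with an ATOH7 UMI over the graft and 1.50%, 1.94% and 1.36% in those without, lower with ATOH7 in 3 of 3 libraries. In control they took 2.49%, 2.51% and 2.10% in cones with an ATOH7 UMI and 2.49%, 2.29% and 2.04% in those without. The cones were chosen by these markers, so the shares say nothing on where the ATOH7 UMIs come from. In RC726 and RC724 the cones with ATOH7 were also the deeper ones, at medians of 13168 and 15002 UMIs over the graft, against 4455 and 9881 UMIs in cones without it. The summed level of the 11 genes, HES6 included, was thus higher over the graft in cones with an ATOH7 UMI in 3 of 3 libraries, most so in LG5, and in control in 2 of 3. Rods over the graft had 30.8, 71.6 and 63.7 CPM with an ATOH7 UMI and 158, 64.4 and 64.7 CPM without. Control rods had 23.7, 57.0 and 52.5 CPM with it and 74.5, 54.4 and 58.2 CPM without. The rod level was thus lower with ATOH7 in 2 of 3 libraries of each group, where the LG5 values with ATOH7 rest on 2 and 1 UMIs.

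The remaining classes held less ATOH7. Bipolar cells had 3.22, 10.4 and 12.6 CPM of ATOH7 over the graft and 4.39, 6.20 and 4.59 CPM in control (change 0.79 ± 0.33; adjusted p = 0.331, edgeR), following the order of the rod values by experiment. CRX, NRL, OTX2, RORB and MEF2D in bipolar cells had estimates of -0.12 ± 0.11, 0.053 ± 0.17, -0.079 ± 0.11, -0.18 ± 0.13 and -0.10 ± 0.13, none past the threshold. THRB in bipolar cells had 29.5, 28.3 and 26.8 CPM over the graft and 21.1, 26.4 and 19.9 CPM in control, groups that did not overlap, and its change of 0.30 ± 0.15 did not pass (adjusted p = 0.432, edgeR). In Müller glia 0 of 9 genes were called (edgeR; 4 had an unadjusted p under 0.05, and DESeq2 was not run for this class), beside 0.241% of all genes. The largest estimate was that of OTX2, which had 24.6, 7.16 and 7.17 CPM over the graft and 18.3, 3.73 and 3.03 CPM in control, higher in 3 of 3 experiments. Its change of 0.79 ± 0.18, set beside 0.56 in rods, did not pass (adjusted p = 0.153, edgeR; unadjusted p = 0.00307) but did without LG5 (change 1.02, adjusted p = 0.0474). RORB, strong in these cells, had 405, 1829.9 and 1979 CPM over the graft and 783, 2005 and 2498 CPM in control, lower in 3 of 3 experiments (change -0.52 ± 0.19; adjusted p = 0.295, edgeR). The other estimates in Müller glia were 0.78 ± 0.33 for ATOH7, 0.42 ± 0.22 for NRL, 0.15 ± 0.20 for CRX, -0.0078 ± 0.14 for THRB, -0.18 ± 0.13 for MEF2D, -0.23 ± 0.30 for NR2E3 and -0.51 ± 0.20 for PRDM1. In amacrine cells 0 of 4 were called (edgeR; 0 at an unadjusted p under 0.05, DESeq2 not run), beside 1.1% of all genes, with estimates of 0.33 ± 0.28 for CRX, 0.12 ± 0.26 for MEF2D, 0.054 ± 0.17 for THRB and -0.0045 ± 0.14 for RORB. Summed over whole punches, 0 of 10 were called by edgeR (3 at an unadjusted p under 0.05; DESeq2 called CRX and NR2E3), beside 4.18% of 21645 genes. ATOH7 there had 5.29, 24.7 and 54.3 CPM over the graft and 3.86, 10.4 and 8.07 CPM in control, a change of 1.54 ± 0.39 (adjusted p = 0.0755, edgeR). The estimate for NR2E3 was -0.81 ± 0.19 (adjusted p = 0.0615, edgeR), and the others were -0.40 ± 0.18 for RXRG, -0.37 ± 0.12 for CRX, -0.33 ± 0.19 for RORB, -0.16 ± 0.10 for MEF2D, -0.10 ± 0.16 for THRB, 0.0048 ± 0.13 for NRL, 0.12 ± 0.10 for OTX2 and 0.17 ± 0.15 for PRDM1. In such sums fewer cells of a type and less RNA per cell cannot be told apart.

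Cones were also split by the opsin with more UMIs, OPN1SW of short-wavelength cones or OPN1LW of long-wavelength cones, a split added after the data were seen. Of 8 genes tested over 5 libraries, 1 was called, THRB, beside 1.73% of 6894 genes. THRB had 17.9 and 321 CPM in OPN1SW cones and 687 and 528 CPM in OPN1LW cones over the graft in RC726 and RC724. In control it had 82.2, 34.2 and 341 CPM in OPN1SW cones and 709, 709 and 530.2 CPM in OPN1LW cones. OPN1SW cones were lower in all 5 libraries, by far the least so in RC724. The difference, OPN1SW minus OPN1LW, was -1.87 ± 0.35 (adjusted p = 0.00547, edgeR), between -4.11 without RC724 and -1.08 without RC726. The punches of an experiment share a retina, so the 5 libraries are not independent. With the punches of an experiment summed, which leaves 3 pairs, the difference was -2.11 and was called (adjusted p = 0.0411, edgeR), among 63 genes in all. RXRG, its partner, was not called, with a difference of 0.014 ± 0.16. ATOH7 gave no call between the types either (0.037 ± 0.15; adjusted p = 0.974, edgeR), with 209.8 and 539 CPM in OPN1SW cones and 171 and 597 CPM in OPN1LW cones over the graft in RC726 and RC724. The OPN1SW cones of LG5 over the graft numbered 5 and were left out, and the other libraries held 22 to 71.

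**Figure D5:**
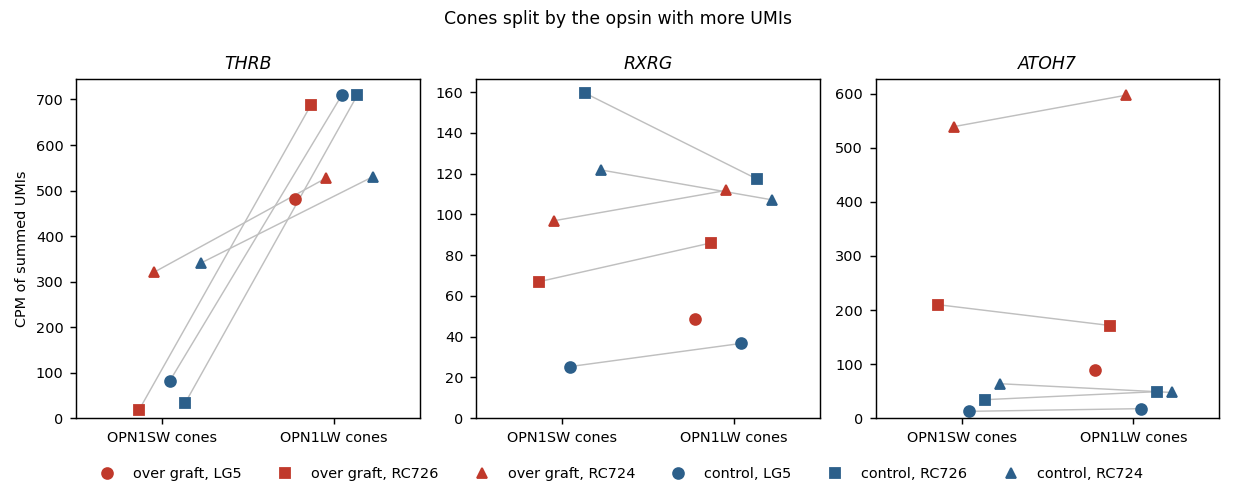
CPM of THRB, RXRG and ATOH7 in cones with more OPN1SW UMIs (left) and with more OPN1LW UMIs (right), red for libraries over the graft and blue for control, with lines joining 1 library. THRB is lower in OPN1SW cones in all 5 libraries shown for both types, and ATOH7 is high over the graft in both types.

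Genes that the 10 regulate, or work with, were read from lists drawn up from textbook knowledge. Of 35 genes listed as targets of CRX and NRL in rods, 23 fell and 1 rose in rods, beside 10.1% of all genes called lower and 10.8% called higher. Their median change was -0.66, against 0.00 for all genes tested, and 10 of the 35 are the rod markers of the gate. The list held NXNL1, a cone survival factor made by rods, with -1.74 ± 0.14 (adjusted p = 6.14e-06), RDH8, a retinol dehydrogenase, with -1.33 ± 0.15 (adjusted p = 8.19e-05), GUCA1A, an activator of guanylate cyclase, with -1.41 ± 0.18 (adjusted p = 0.000149) and GUCY2F, a retinal guanylate cyclase, with -1.03 ± 0.14 (adjusted p = 0.00024, all edgeR). Of the gate's 10 rod markers alone, 8 fell in rods, with a median of -0.91. In cones 11 of the 35 fell and 0 rose, with a median of -0.52, beside 1.55% of all genes called lower, and in bipolar cells 7 of 33 fell and 0 rose, beside 0.182%. GUCA1A was among the falls in cones (-1.34 ± 0.25), with NXNL1 (-1.47 ± 0.30) and the rod genes CNGA1 and PDE6A. It was also among those in bipolar cells (-1.29 ± 0.19), with RDH8 (-1.67 ± 0.28), PDE6A and GNB1. GNB1 was a rod marker of the gate but was left out of the markers used to estimate free RNA. With free RNA subtracted, 0 of the 11 falls in cones and 0 of the 7 in bipolar cells were called, against 24 of the 24 calls in rods. Among all genes that setting called 33 of 10829 in cones, 0 of 12426 in bipolar cells and 2771 of 14923 in rods. The lost calls are thus not particular to the listed genes. Estimates in cones under that setting were -1.33 ± 0.30 for GUCA1A and -1.41 ± 0.39 for NXNL1. The rod markers of the gate fell in these classes too, 6 of 10 in cones and 3 of 10 in bipolar cells. The gate capped their share in both classes, at a lower value over the graft in each experiment. These falls, and those of the listed rod genes, can thus follow from the gate itself, and its part was not tested. CRX and NRL themselves were not called in rods, where 23 of 35 listed targets fell. NR2E3 is known to repress cone genes in rods, though which of those listed here are its targets was not tested. The listed cone genes were the cone markers of the gate. A barcode counted as a rod only below 0.5 of the cone threshold, so the gate itself limits a rise of these genes in rods. Of the 10 tested in rods, 1 rose and 2 fell. The riser was GUCA1C, another cyclase activator, with 9.64 CPM over the graft, against 2.46 CPM in control (change 2.04 ± 0.30; adjusted p = 0.000456, edgeR). ARR3, the cone arrestin, changed by -1.19 ± 0.26 and PDE6H, a cone phosphodiesterase subunit, by -0.57 ± 0.17 in rods. In cones the same list gave 1 rise, again GUCA1C (1.62 ± 0.20), and 3 falls among 11, namely ARR3 (-1.45 ± 0.24), GRK7 (-0.72 ± 0.15) and GNAT2 (-0.66 ± 0.18), and these genes also served in the cone gate. With free RNA subtracted, GUCA1C alone of the listed cone genes was called in rods and in cones, and in rods ARR3 and PDE6H had estimates above 0, 1.46 ± 1.27 and 1.04 ± 0.74. In bipolar cells 0 of 7 were called (edgeR; 1 at an unadjusted p under 0.05, DESeq2 0).

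Of the Notch and neurogenic genes, the company of ATOH7 in progenitors, 4 of 16 rose and 1 fell in rods, beside 10.8% of all genes called higher and 10.1% called lower. HES6, a factor that counters Notch effectors, averaged 71.3 CPM over the graft, against 33.0 CPM in control (change 0.91 ± 0.14; adjusted p = 0.000461, edgeR). NEUROD1, which is needed to maintain photoreceptors, averaged 808 CPM over the graft, against 531 CPM in control (change 0.52 ± 0.13; adjusted p = 0.0122, edgeR). DLL4, a Notch ligand, averaged 3.91 CPM over the graft, against 1.75 CPM in control (change 1.07 ± 0.29; adjusted p = 0.0189, edgeR), and GADD45A, a DNA-damage gene, fell with -1.05 ± 0.13 (adjusted p = 9.9e-05, edgeR). In cones HES6 again rose (0.93 ± 0.21; adjusted p = 0.0162, edgeR) and GADD45A fell (-1.25 ± 0.16), 2 of 10 tested, beside 4.29% of all genes. With free RNA subtracted, which left 33 of 10829 genes called in cones, GADD45A was called and HES6 was not (1.02 ± 0.30). In bipolar cells 0 of 12 were called (edgeR; 2 at an unadjusted p under 0.05, DESeq2 0). The median of this list was near 0 in rods at -0.01 and in cones at -0.03.

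Among 32 other retinal regulators tested in rods, 3 rose and 4 fell, a share near the 20.9% called among all genes. NEUROD1, given above, was one of the risers, and the others here fell. ESRRB, an orphan nuclear receptor of rods, averaged 106 CPM over the graft, against 238 CPM in control (change -1.22 ± 0.15; adjusted p = 0.000149, edgeR). MEF2C, a relative of MEF2D, averaged 401 CPM over the graft, against 795 CPM in control (change -1.03 ± 0.16; adjusted p = 0.000656, edgeR), while MEF2D itself was not called. NR2F2, an orphan nuclear receptor, changed by -1.16 ± 0.26 in rods and by -1.25 ± 0.33 in cones, where it and the clock receptor NR1D1 (-0.56 ± 0.14) were the 2 of 28 called, beside 4.29% of all genes, and neither was called with free RNA subtracted. In bipolar cells 0 of 32 were called (edgeR; 8 at an unadjusted p under 0.05, DESeq2 0). Among 15 partners of the thyroid hormone and retinoid receptors in rods, 4 were called, not far from the 20.9% of all genes. THRA rose (0.48 ± 0.16; adjusted p = 0.047, edgeR) and 3 fell: the retinoic acid receptor RARB (-1.24 ± 0.16), the coactivator NCOA2 (-0.54 ± 0.14) and ALDH1A1, which makes retinoic acid (-2.95 ± 0.47, with 0.509 CPM over the graft, against 5.44 CPM in control). With free RNA subtracted, RARB and NCOA2 were still called. ALDH1A1 was also the 1 of 14 called in bipolar cells (-4.62 ± 0.30; adjusted p = 4.88e-06, edgeR), a call lost with free RNA subtracted (-5.07 ± 0.47, adjusted p = 0.139), and in cones 0 of 13 were called (edgeR; 5 at an unadjusted p under 0.05, DESeq2 0). For scale, the interferon response list had 11 of 11 genes higher in rods, with a median of 5.43, and 3 of 4 in cones and 4 of 8 in bipolar cells, with medians of 1.77 and 2.11, beside 10.8%, 2.75% and 0.524% of all genes called higher. Among its leading genes were, in rods, IFI44L (6.26 ± 0.29), MX1 (5.90 ± 0.29), IFIH1 (5.43 ± 0.32) and OAS1 (5.30 ± 0.31), in cones ISG15 (5.32 ± 0.38) and IRF9, and in bipolar cells MX1 (4.84 ± 0.34), IRF7, ISG15 and IRF9. With free RNA subtracted, 11 of 11 were called in rods, and 0 in cones and in bipolar cells. Among all genes that setting called 33 of 10829 in cones and 0 of 12426 in bipolar cells, so the loss is not particular to this list.

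The genes whose control levels were most like those of a member were sought by Pearson's r of log2(CPM + 1) over 19 sums of class and library, from 8 classes, among 11714 genes. These points share libraries and free RNA, so the values are descriptive. For CRX they were PCBP4 (0.980), C31H21orf91 (0.973) and PRCD (0.971), for NRL EMB (0.971), CLUL1 (0.965) and NR2E3 (0.961), and among those for NR2E3 PDE6G (0.963) and PDE6A (0.962), genes of rod phototransduction that were also gate markers. OTX2 was closest to CACNA1F (0.971), the calcium channel of photoreceptor and bipolar terminals, ABHD3 (0.969) and LRIT1 (0.967). THRB had no gene above ELOVL2 (0.920), OSBPL3 (0.919) and TRPS1 (0.912), and ATOH7 none above VPS37A (0.889), BBOF1 (0.886) and PPP2R2B (0.883).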

How the data were processed

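Single cells of 6 libraries, 3 over the graft and 3 control, were sequenced with the 10x 3' v3.1 kit after digestion in 0.25% trypsin for 10 minutes, per the labels' protocols. The deposited matrices hold raw UMI counts per gene and barcode, already restricted to called cells, and were made with Cell Ranger 6.0.2 for LG5, 7.1.0 over the graft and 7.0.0 in control for RC726, and 7.1.0 for RC724, per the file headers. No source used here gives the genome build or annotation, or states whether intronic reads were counted. The files name genes by symbol only, of which 33363 of 34981 match a RefSeq symbol. The deposited barcodes had medians of 1259, 2044 and 2685 UMIs over the graft and 1307, 1772 and 2354 in control.

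Kept barcodes had 300 genes or more and no more than 20% mitochondrial UMIs, which left 23859, 11283 and 9256 over the graft and 17904, 9887 and 8552 in control. A barcode joined a class when at least 3 of the class markers were detected and their summed share of UMIs passed a threshold, 0.25% for rods and 0.5% for cones and bipolar cells. Rods also had to stay below 0.5 of the cone, bipolar and Müller thresholds. In the other classes the rod marker share had to stay below 0.5 of the library's rod median. That median was 1.49%, 1.47% and 0.998% over the graft and 3.22%, 1.94% and 1.76% in control. Thresholds were set after the data were seen. Barcodes positive for 2 or more classes were left out in place of a doublet caller, which was not run, and 6.33% to 23.5% of kept barcodes stayed without a class. Libraries shared 17 to 102 barcodes by pairs.

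UMIs were summed per class and library where at least 20 barcodes were present and tested with edgeR 4.0.16 (quasi-likelihood, filterByExpr, TMM, Benjamini-Hochberg adjustment over all genes, threshold 0.05) under R 4.3.3. The experiment was a block, since both punches of an experiment come from the same retina per the series design text, and the deviations of the 2 punches from their group means correlated at 0.79 to 0.95 in rods, cones and bipolar cells. Errors of log2 changes and differences are SE derived from the estimate and the F statistic of the edgeR fit, whose dispersion is moderated across genes. They do not give the spread of the 3 experiments, which can be wider. For ATOH7 the log2 ratios of the 3 experiments had an SD of 1.46 in rods and 0.95 in cones. Differences between classes in their change were fitted with library and class-by-experiment terms. Cone types were compared with a term for each of 5 libraries and, as an alternative, with the punches of an experiment summed. Shares of barcodes with a UMI were taken after thinning to 500 UMIs, with exact 95% intervals. Alternatives were DESeq2 1.42.0, other scalings, no filter, stricter gates, thinning, subtraction of free RNA, no block and omission of each experiment. The scripts were tested on simulated data.

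The 10 genes and the lists were chosen with earlier results of these data known. All 10 are named for each class in which their change over the graft could be tested, and from each list up to 4 called genes by p. For likeness, the 3 genes with the highest r are named for 6 of the 10. Some genes that these rules select are not reported here.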

Additional observations from a re-analysis of the deposited data

Results flagged for a closer look

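In 5 cases the change over the graft differed between gated classes by a test of the difference itself. Relative to the change in rods, the change in cones was higher by 0.83 on the log2 scale for RORB (adjusted p = 5.11e-06, edgeR quasi-likelihood test with Benjamini-Hochberg adjustment), by 0.76 for NR2E3 (adjusted p = 0.0241) and by 0.85 for ATOH7 (adjusted p = 0.000749). For OTX2 the difference was -0.58 between cones and rods (adjusted p = 0.00092) and -0.64 between bipolar cells and rods (adjusted p = 0.00424). The subtraction of free RNA left cones no RORB UMIs outside RC724 over the graft and no NR2E3 UMIs in the control libraries. The estimates under that setting, 9.64 for RORB and 8.37 for NR2E3, are no measure of size, and their calls there are no support. None of the 5 was called when the experiments' class terms were left out of the fit.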

How the results depend on the processing

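OTX2 and NR2E3 in rods and ATOH7 in cones kept their direction under all 13 alternatives and were called in 12 of them, all but the fit without the replicate block, with ranges of 0.51 to 0.64, -1.08 to -0.61 and 1.83 to 3.01. ATOH7 in rods ranged from 0.80 to 2.11 and was called in 10 of 13. Without the replicate block edgeR called 0 genes in rods, cones, bipolar cells and whole punches (645, 200, 73 and 343 had an unadjusted p under 0.05), against 3280, 508, 97 and 905 with it.

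The counts of genes called otherwise moved by over 1.5 times in these settings. Thinning left 2068 genes in rods, 108 in cones, 2718 between cones and rods and 4581 between bipolar cells and rods in control. In cones DESeq2 called 238 genes, no filter gave 863 and subtraction of free RNA 33. In bipolar cells library size alone gave 48, no filter 665, the stricter barcode filter 42, the stricter marker gate 63, free RNA subtraction 0 (edgeR; 761 had an unadjusted p under 0.05) and omission of the barcodes with most UMIs 41. In whole punches DESeq2 called 2094 and no filter gave 2389. For the difference of changes, the library term alone left 1 gene between cones and rods and 4 between bipolar cells and rods, and free RNA subtraction left 193 and 0 (edgeR; for the 0, 2449 had an unadjusted p under 0.05). With 1 experiment left out, counts ran from 1602 to 3367 in rods, 327 to 818 in cones, 25 to 668 in bipolar cells, 578 to 1143 in whole punches, 12 to 409 in Müller glia (42 with all), 37 to 231 in amacrine cells (107 with all), 49 to 165 between cone types (119 with all, 63 with punches summed), 2949 to 7468 and 4110 to 8900 for control levels of cones and bipolar cells against rods, and 488 to 738 for cone against rod changes. Scaling by library size alone split the cone-rod level calls into 2521 higher and 3750 lower, against 2858 and 2726, and the median of all genes there was -0.20.

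Changes of sign touched only values that were called neither in the main test nor in the alternative. NRL in rods was -0.0087 with DESeq2, -0.000892 with RLE factors, -0.011 with free RNA subtracted and -0.030 after thinning. NRL in cones was 0.030 with DESeq2, 0.0030 with RLE factors and 0.055 with library size alone. In bipolar cells CRX was 0.013 and ATOH7 -0.14 with free RNA subtracted, NRL -0.021 with the stricter gate and OTX2 0.019 after thinning. Without the block, Müller glia gave -0.25 for CRX and 0.063 for THRB, amacrine cells 0.039 for RORB, and whole punches -0.040 for NRL and 0.0011 for THRB. NRL in whole punches was also -0.030 with DESeq2, -0.029 with RLE factors and -0.0011 with library size alone. Between cone and rod changes NRL was -0.064 with the library term alone, -0.0058 with RLE factors and -0.12 with the stricter gate. Between bipolar cells and rods the RORB level was -0.093 with free RNA subtracted, and the NRL change -0.039 with the stricter gate and -0.70 with free RNA subtracted. The cause was not tested.

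With 1 experiment left out, these values crossed 0. In rods NRL ran from -0.00594 to 0.016 and MEF2D from -0.21 to 0.016. In cones NRL ran from -0.14 to 0.23, NR2E3 from -0.39 to 0.17, OTX2 from -0.18 to 0.077 and MEF2D from -0.13 to 0.23. NRL ran from -0.020 to 0.14 in bipolar cells. In Müller glia CRX ran from -0.10 to 0.49, NR2E3 from -0.61 to 0.29 and THRB from -0.12 to 0.13, and in amacrine cells CRX from -0.0071 to 0.57, RORB from -0.089 to 0.10 and THRB from -0.031 to 0.11. In whole punches NRL ran from -0.18 to 0.091 and THRB from -0.31 to 0.079. The cone-rod level of MEF2D ran from -0.21 to 0.051 and the cone-rod change of NRL from -0.19 to 0.21. Between bipolar and rod changes NRL ran from -0.053 to 0.14, NR2E3 from -0.27 to 0.38 and MEF2D from -0.10 to 0.11. Between cone types CRX ran from -0.082 to 0.090, RXRG from -0.035 to 0.038 and ATOH7 from -0.039 to 0.074, and with punches summed CRX was -0.0036 and RXRG -0.011.

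Depth limits the low genes: RXRG in rods and RXRG and PRDM1 in bipolar cells gave too few UMIs to test.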
